A study of Mus musculus with 4 samples.

Results

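The CXC chemokines are small secreted attractants of blood cells, named for the spacing of their first cysteines, and 7 of them were followed together with the receptor Cxcr4 in dystrophic mouse muscle. The genes were Cxcl1, Cxcl5, Cxcl9, Cxcl10, Cxcl12, Cxcl14, Cxcl16 and Cxcr4. They were chosen by name with earlier results of these data known, as were the gene lists set beside them below. Every probe set of the array annotated to a single one of the 8 genes was used. This gave 15 probe sets for 8 genes, of 34945 single-gene probe sets for 18193 genes on the array. Of the 8 genes, 3 (Cxcl5, Cxcl10 and Cxcr4) had 1 probe set.

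Total RNA came from the tibialis anterior, which lies along the shin and is made mostly of fast fibres, and was hybridised to Affymetrix whole-genome mouse arrays. There were 4 groups with 1 array per group. All mice were on the C57BL/6J strain and carried the mdx allele, which removes dystrophin and causes cycles of fibre necrosis and regeneration. The groups were mdx at 1 month, mdx at 3 months, mdx/MMP-2-/- at 1 month and mdx/MMP-2-/- at 3 months of age. The mdx/MMP-2-/- mice, here called MMP-2-deficient, also lacked matrix metalloproteinase 2, a secreted gelatinase. No array of wild-type muscle or of muscle lacking MMP-2 alone was among them, and whether several animals were pooled is not given in the sources used here.

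With 1 array per group there is no spread within a group, so "higher" and "lower" describe single arrays and neighbouring levels cannot be said to differ. The number of arrays limits the precision. Differences of at least 2-fold were counted and set beside the share of all genes that were as far apart. Signals are quantile-scaled microarray signals on a linear scale, and the floor of 17.4 is the median of all signals. A fold against an array below the floor is a lower bound. Muscle fibre markers were present, with all 12 far above the floor on every array. Mmp2 had signals of 986 and 805 in mdx and of 24.7 and 40.9 in MMP-2-deficient, at 1 and 3 months. The 3'/5' signal ratio of Actb, which reflects RNA integrity and labelling, was 1.19 and 2.36 in mdx and 1.05 and 2.09 in MMP-2-deficient, at 1 and 3 months, so it was higher at 3 months in both. The same ratio of Gapdh was 0.883 and 0.936 in mdx and 0.85 and 0.935 in MMP-2-deficient.

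As background, Cxcl1 and Cxcl5 act on Cxcr2 and draw neutrophils, and their genes are induced through NF-kB. Cxcl9 and Cxcl10 are induced by interferons and draw activated T cells and natural killer cells through Cxcr3. Cxcl12 is made by stromal and endothelial cells and acts on Cxcr4, which guides blood cells, stem cells and myogenic cells. MMP-2 is known to cleave the Cxcl12 protein near its amino end, which ends its action on Cxcr4. The arrays measured RNA and hold nothing on cleavage. In whole muscle, fewer cells of a type and less RNA per cell cannot be told apart.

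Promoter sequences are shown for 4 of the genes, because these are the inflammatory and interferon-induced members and Cxcl14, which both its probe sets placed past 2-fold between ages in MMP-2-deficient. They come from RefSeq on GRCm38.p6, which had entries for 6 of the 8 members and none used here for Cxcl5 and Cxcl16. Each run reads 5′ to 3′ on the gene's strand. For the first 3 it ends just before the annotated start. Capitals mark motif matches on either strand: kB sites (GGGNNTTCC or GGGNNTTTC, bound by NF-kB), the core of the interferon-stimulated response element or ISRE (GAAANNGAA), and the gamma-activated site or GAS (TTCNNNGAA). The Cxcl1 window lies at chr5:90890995-90891244 (+ strand), that of Cxcl9 at chr5:92328080-92328329 (- strand) and that of Cxcl10 at chr5:92348890-92349139 (- strand). The Cxcl14 stretch of 28 bases lies at chr13:56296715-56296742 (- strand), between 191 and 164 bases before the start that the table uses, and the annotated gene reaches further upstream than that start.
Cxcl1: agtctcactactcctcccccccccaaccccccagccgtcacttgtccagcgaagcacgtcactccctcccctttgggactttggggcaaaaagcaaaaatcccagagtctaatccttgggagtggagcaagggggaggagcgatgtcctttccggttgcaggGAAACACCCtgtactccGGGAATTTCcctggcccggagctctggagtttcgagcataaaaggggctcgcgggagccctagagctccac
Cxcl9: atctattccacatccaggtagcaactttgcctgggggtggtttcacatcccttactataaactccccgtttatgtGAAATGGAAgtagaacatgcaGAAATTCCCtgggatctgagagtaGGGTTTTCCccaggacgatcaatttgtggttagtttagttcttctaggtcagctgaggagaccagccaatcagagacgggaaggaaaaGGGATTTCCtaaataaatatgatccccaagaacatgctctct
Cxcl10: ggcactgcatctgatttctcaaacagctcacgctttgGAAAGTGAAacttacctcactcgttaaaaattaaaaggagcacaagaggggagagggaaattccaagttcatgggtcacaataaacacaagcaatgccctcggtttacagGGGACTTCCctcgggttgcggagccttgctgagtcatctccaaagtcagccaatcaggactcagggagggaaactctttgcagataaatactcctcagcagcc
Cxcl14: TTCTGAGAAgtgtccacagGAAACAGAA

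Cxcl1 held 2 kB matches, beginning 88 and 71 bases before its start. Cxcl9 held an ISRE match at 175 bases and 3 kB matches, at 154, 130 and 42 bases. Cxcl10 held an ISRE match at 213 bases and a kB match at 103 bases. Cxcl14 held a GAS match at 191 bases and an ISRE match at 172 bases. Cxcr4 held a kB match at 223 bases, and the window of Cxcl12 held none of these letters. No 2 matches overlapped. Among 32851 promoters in the table, 8.14% held a kB match in either spelling, 7.13% an ISRE match and 7.02% a GAS match in the same 250 bases. A match of letters is not a measured binding site. Only the spellings given were searched, so other forms of kB site are unmarked, such as the run gggaaattcc in the Cxcl10 window.

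**Figure D1:**
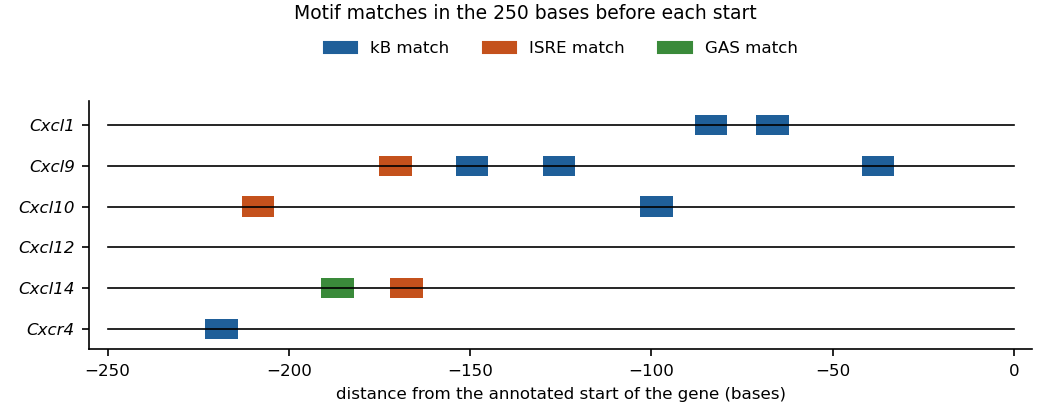
Positions of motif matches (coloured boxes: kB, ISRE, GAS) in the 250 bases before the annotated start of the 6 members with a promoter entry. The x axis is distance from the start in bases. Cxcl1 holds 2 kB matches, Cxcl9 and Cxcl10 hold ISRE and kB matches, Cxcl14 holds GAS and ISRE, Cxcr4 holds 1 kB match and Cxcl12 none.

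Of the neutrophil attractants, Cxcl5 had the most one-sided pattern of the 8 genes. Its scaled signal was 3.69 in mdx and 8.24 in MMP-2-deficient at 1 month, and 0.904 in mdx and 76.1 in MMP-2-deficient at 3 months. The array of MMP-2-deficient muscle at 3 months thus held a signal above the floor, and the other 3 arrays did not. Values below the floor have no order. Against the floor, Cxcl5 was at least 4.37-fold higher in that array than in either the age-matched mdx array or the younger MMP-2-deficient array. Both folds rest on the same array and on 1 probe set. The bound moves with the floor: on the log2 scale it was 2.13, against 1.33 with a floor at the 60th percentile and 2.78 at the 40th.

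Cxcl1 is read by 3 probe sets, which differed in level and in part in direction. The probe set with the highest signal gave 66.4 in mdx and 50.1 in MMP-2-deficient at 1 month, and 60 and 95.2 at 3 months. The second gave 38.0 and 21.0 at 1 month, and 22.4 and 57.0 at 3 months. The third gave 28.8 and 20.3 at 1 month, and 53.3 and 68.3 at 3 months. All 3 were lower in MMP-2-deficient at 1 month and higher at 3 months.

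For Cxcl1 at 3 months, MMP-2-deficient stood 1.59-fold above mdx by the first probe set, 2.55-fold by the second and 1.28-fold by the third. Only the second passes 2-fold. The first is of a class (_x_at) prone to cross-hybridise, as is the third (_s_at), which may read related transcripts. From 1 to 3 months all 3 were higher in MMP-2-deficient, by 1.9-fold, 2.72-fold and 3.37-fold. In mdx they disagreed: the first and second were 1.11-fold and 1.7-fold lower and the third was 1.85-fold higher.

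**Figure D2:**
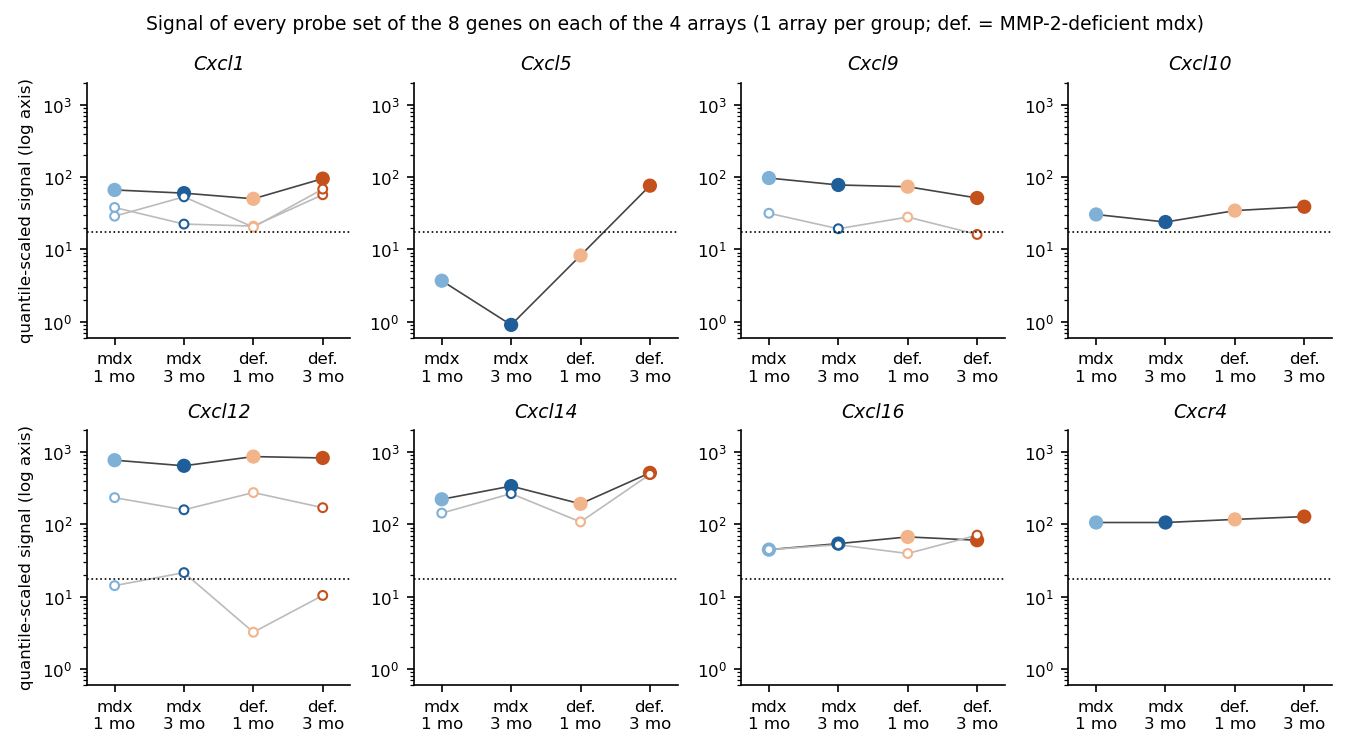
Quantile-scaled signal (log axis) of all 15 probe sets of the 8 genes on the 4 arrays (1 array per group: mdx and MMP-2-deficient, labelled def., at 1 and 3 months). Filled points are the probe set with the highest mean signal, open points the other probe sets, lines join a probe set's values, and the dotted line is the floor of 17.4, below which values have no order. Cxcl5 stands above the floor in MMP-2-deficient at 3 months alone, and both Cxcl14 probe sets are highest there.

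The interferon-induced attractants Cxcl9 and Cxcl10 went apart. Cxcl9 had signals of 97.0 in mdx and 73.6 in MMP-2-deficient at 1 month, and 77.8 and 51.4 at 3 months. It was lower in MMP-2-deficient at both ages, 1.32-fold at 1 month and 1.51-fold at 3 months, and lower at 3 months than at 1 month in both genotypes, 1.25-fold in mdx and 1.43-fold in MMP-2-deficient. Its other probe set gave 31.6 and 28.0 at 1 month, and 19.3 and 16.1 at 3 months, the last of these below the floor. It lay the same way in all 4 differences.

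Cxcl10 had signals of 30.4 in mdx and 34.4 in MMP-2-deficient at 1 month, and 23.9 and 38.9 at 3 months. The MMP-2-deficient array was the higher at both ages, 1.13-fold at 1 month and 1.62-fold at 3 months, which is opposite to Cxcl9. All 4 values lay within a few fold of the floor. From 1 to 3 months Cxcl10 was 1.27-fold lower in mdx and 1.13-fold higher in MMP-2-deficient.

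By the probe set with the highest mean, Cxcl12 and its receptor Cxcr4 had the narrowest range over the 4 arrays. The Cxcl12 probe set with the highest signal gave 771 in mdx and 865 in MMP-2-deficient at 1 month, and 645 and 828 at 3 months. Its highest array stood 1.34-fold above its lowest. The second probe set gave 234 and 275 at 1 month, and 159 and 170 at 3 months. Both placed MMP-2-deficient above mdx at both ages, by 1.07-fold to 1.28-fold.

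With age, Cxcl12 was 1.19-fold lower in mdx by the first probe set and 1.47-fold by the second. In MMP-2-deficient the second was 1.61-fold lower, whereas the first gave a log2 difference of -0.06, which became 0.28 with median scaling and 0.34 with no scaling. The third Cxcl12 probe set exceeded the floor on 1 array only, with 21.5 in mdx at 3 months. Endothelial markers also were lower at 3 months in 12 of 13 cases in mdx and in 13 of 13 in MMP-2-deficient, with summed signals of 2973 and 2193 in mdx and 3320 and 2071 in MMP-2-deficient. Whether their share bears on Cxcl12 was not tested.

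Cxcr4 had signals of 106 in mdx at both ages, of 117 in MMP-2-deficient at 1 month and of 128 at 3 months. The MMP-2-deficient arrays were 1.11-fold and 1.22-fold above mdx, and the whole range over 4 arrays was 1.22-fold. Satellite cells, the muscle stem cells that can carry Cxcr4, had markers lower at 3 months in 10 of 10 cases in mdx and in 5 of 10 in MMP-2-deficient.

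Cxcl14, a chemokine that many epithelia make without induction, was past 2-fold with age in MMP-2-deficient at signals well above the floor. Its probe set with the highest signal gave 222 in mdx and 192 in MMP-2-deficient at 1 month, and 338 and 515 at 3 months. The second gave 143 and 108 at 1 month, and 266 and 491 at 3 months. By both, the order of the arrays was MMP-2-deficient at 1 month, mdx at 1 month, mdx at 3 months and MMP-2-deficient at 3 months, from lowest to highest.

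From 1 to 3 months Cxcl14 was 1.52-fold higher in mdx and 2.68-fold higher in MMP-2-deficient, or 1.86-fold and 4.55-fold by the second probe set. At 3 months MMP-2-deficient stood 1.52-fold and 1.85-fold above mdx by these probe sets, and at 1 month 1.16-fold and 1.32-fold below it. The Actb 3'/5' ratio was also higher at 3 months in both genotypes, whereas that of Gapdh lay between 0.85 and 0.936 on all 4 arrays, and the part of RNA quality in the age difference was not tested. The summed signal of fibroblast markers was 50165 and 45395 in mdx and 48574 and 48076 in MMP-2-deficient, at 1 and 3 months. Of 11 skin epithelium markers, 6 were below the floor on every array, among them the keratin genes Krt14, Krt1, Krt15 and Krt17. The keratin gene Krt10 was measured on every array, with 140 and 104 in mdx and 113 and 89.8 in MMP-2-deficient, at 1 and 3 months. The summed signal of the list, in which Krt10 was the highest, was 239 and 240 in mdx and 188 and 199 in MMP-2-deficient.

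Over 4 arrays, the genes closest to Cxcl14 in pattern were Ggt5, an enzyme that cleaves glutathione conjugates such as leukotriene C4, Ahnak2, a large scaffold protein, and Ccdc126. Likeness was the root mean square distance of log2 signals, each centred on its own mean, over 7620 candidate genes, and it was 0.05, 0.06 and 0.1. Ggt5 was 1.56-fold higher at 3 months in mdx and 2.77-fold higher in MMP-2-deficient, and Ahnak2 1.47-fold and 2.44-fold.

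Cxcl16, a chemokine made as a membrane protein that binds Cxcr6, gave no uniform picture. Its probe set with the higher mean had signals of 44.7 in mdx and 67.0 in MMP-2-deficient at 1 month, and 54.1 and 60.3 at 3 months. The other had 44.7 and 39.5 at 1 month, and 52.2 and 70.9 at 3 months. At 3 months both placed MMP-2-deficient higher, by 1.11-fold and 1.36-fold. At 1 month they lay opposite, 1.5-fold higher by one and 1.13-fold lower by the other. From 1 to 3 months they lay opposite in MMP-2-deficient as well, 1.11-fold lower by the first and 1.8-fold higher by the other. In mdx both were higher at 3 months, by 1.21-fold and 1.17-fold.

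The difference at 1 month asks what loss of MMP-2 alters while regeneration is active. The members were mixed there: 4 of 8 genes were higher in MMP-2-deficient, 3 were lower and Cxcl5 was below the floor in both arrays. By probe set the balance was the other way, with 5 higher and 8 lower of 15. None passed 2-fold, where 1.15% of 12802 genes did, 73 higher and 74 lower (131 and 35 with no scaling, 54 and 81 with median scaling). The members' log2 differences ran from -0.41 to 0.58 with a median of 0.07, beside 0.0 for all genes. Of the 5 genes with several probe sets, Cxcl1, Cxcl9 and Cxcl14 had all their probe sets lower in MMP-2-deficient.

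The difference at 3 months asks the same after the peak of regeneration. In MMP-2-deficient, 7 of 8 members were higher and Cxcl9 was lower. Since Cxcl5 was above the floor on that array alone, it could only count as higher in differences with that array. Cxcl5 was past 2-fold, 1 of 8 members, where 1.18% of all genes were higher by that much and 1.6% past 2-fold in either direction. The members' median log2 difference was 0.48, beside 0.0 for all genes, with a range from -0.6 to 2.13. Of 15 probe sets, 12 were higher and 3 lower.

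The genotype difference was at least 2-fold greater at 3 months than at 1 month for 2 of 8 members, Cxcl1 and Cxcl5, where 2.91% of all genes were, and at least 2-fold smaller for 0.

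No member turned its direction at 3 months under median, cyclic loess or no scaling. With unscaled signals, however, the median of all genes itself was 0.41, and the members' median became 0.93. Cxcl1, Cxcl10 and Cxcl14 then joined Cxcl5 past 2-fold, among 855 genes higher and 13 lower, against 151 and 54 with quantile scaling. Relative to the median of all genes, the members' median was 0.52 with unscaled signals.

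**Figure D3:**
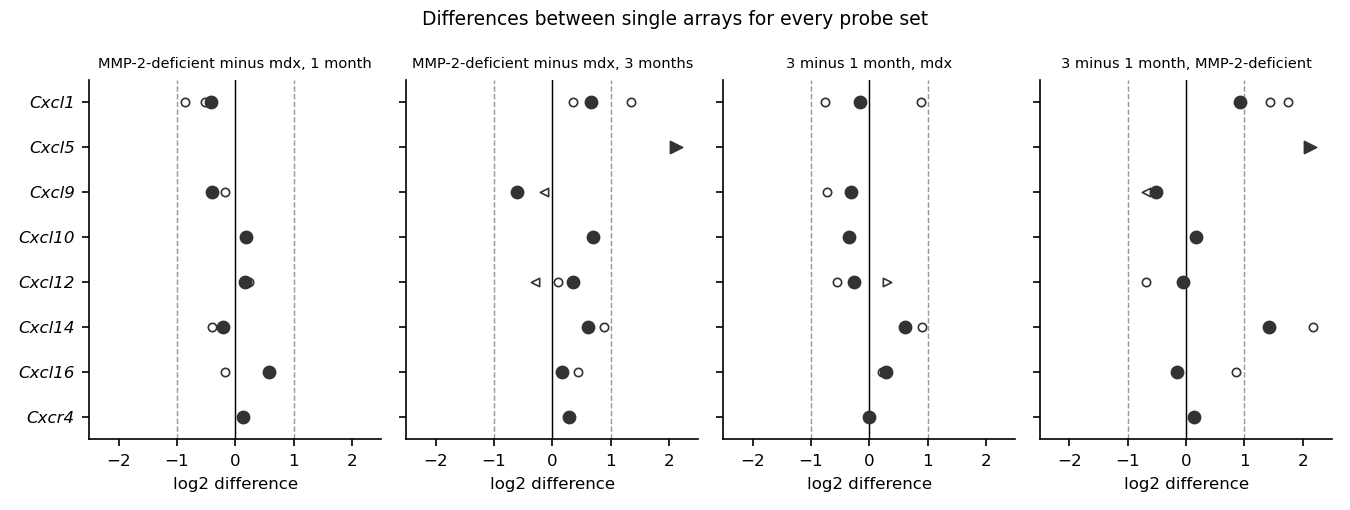
Log2 difference between single arrays (x axis) for the probe sets of the 8 genes in the 4 differences; dashed lines mark 2-fold. Filled symbols are the probe set with the highest mean signal, open symbols the others, triangles are lower bounds against the floor, and probe sets below the floor in both arrays are left out. Cxcl5 and Cxcl14 are past 2-fold between ages in MMP-2-deficient, and no filled symbol is past 2-fold at 1 month or between ages in mdx.

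**Figure D4:**
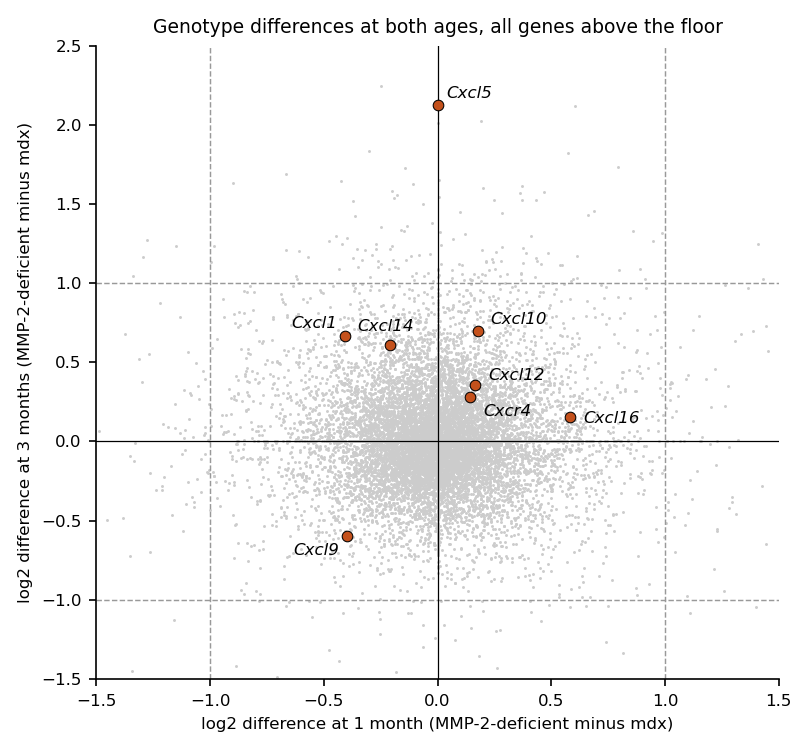
Log2 difference of MMP-2-deficient minus mdx at 1 month (x axis) and at 3 months (y axis) for 12782 genes (grey) and the 8 members (orange); 20 genes lie outside the axes, and dashed lines mark 2-fold. The members are spread along the x axis from -0.41 to 0.58 and lie above 0 on the y axis except Cxcl9; Cxcl5 at 1 month is drawn at 0 because both arrays were below the floor.

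Between ages, mdx and MMP-2-deficient muscle gave unlike counts. In mdx, 2 members were higher at 3 months (Cxcl14 and Cxcl16) and 4 lower, none past 2-fold, where 2.52% of all genes were (125 higher and 198 lower, or 67 and 253 with no scaling), and the members' median was -0.08. In MMP-2-deficient, 5 were higher and 3 lower, Cxcl5 and Cxcl14 were past 2-fold, where 1.47% of all genes were as far above and 2.69% past 2-fold in either direction, and the median was 0.15. The split over all genes there was 188 higher and 156 lower, which became 354 and 106 with median scaling and 466 and 92 with no scaling. Cxcl12 and Cxcl16 turned from lower to higher with no scaling in that difference, Cxcl12 also with median scaling. The age difference in MMP-2-deficient and the genotype difference at 3 months share an array, so they are not separate observations.

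The array of MMP-2-deficient muscle at 3 months was the highest of the 4 for 5 of 8 members (Cxcl1, Cxcl5, Cxcl10, Cxcl14 and Cxcr4), and for 26.2% of all genes. Cxcl12 and Cxcl16 were highest in MMP-2-deficient at 1 month and Cxcl9 in mdx at 1 month. These ranks are by the probe set with the highest mean, and the other Cxcl16 probe set was highest in MMP-2-deficient at 3 months (70.9). No member was highest in mdx at 3 months.

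An additive fit of genotype and age over the 4 arrays (limma) was the test computed across all genes. It left 1 residual degree of freedom and did not call even Mmp2, the deleted gene, for genotype. A lack of calls therefore does not show a lack of difference. The fit also assumed that genotype acts alike at both ages, which the directions of Cxcl1 and Cxcl14 do not follow. It called 0 of 8 members for genotype and 0 for age, as it called 0.0% of all 12802 genes, with lowest adjusted p-values among members of 0.982 and 0.288. At an unadjusted p of 0.05, Cxcl9 passed for genotype, where 4.39% of all genes did, and Cxcl9 and Cxcl14 for age, where 13.8% did.

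Of 8 other CXC ligands, Cxcl2, Cxcl3, Cxcl11 and Cxcl15 were below it on every array. Pf4, platelet factor 4, was 1.91-fold higher in MMP-2-deficient at 3 months (948 against 498), with 581 against 545 at 1 month. Of 6 other receptors on the array, Cxcr2, Cxcr5 and Cxcr6 were below the floor throughout, so the receptors for Cxcl1, Cxcl5 and Cxcl16 gave no signal to set beside their ligands. Ackr3, a scavenging receptor for Cxcl12, had signals of 577 in mdx and 627 in MMP-2-deficient at 1 month, and 623 and 582 at 3 months. None of the 4 measured ligands or 3 measured receptors was past 2-fold in any of the 4 differences.

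Of the proteases known to trim or shed CXC ligands, 7 of 9 were above the floor. Mmp2, which the genotype removes, was the 1 gene of this list past 2-fold between genotypes. Mmp14, the membrane protease that activates MMP-2, was 1.17-fold higher in MMP-2-deficient at 1 month and 1.78-fold at 3 months (1158 against 652). Adam10 and Adam17, which shed Cxcl16, had folds of at most 1.31 between genotypes. From 1 to 3 months, 1 of the 7 was past 2-fold in MMP-2-deficient, Mmp9 (58.5 against 25.5), where 1.47% of all genes were as far above. Mmp9 was named here after its values were seen. In mdx 0 were past 2-fold, where 2.52% of all genes were.

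Inducers and targets of NF-kB were higher in MMP-2-deficient at 3 months for 14 of 17 measured genes, 5 of them past 2-fold (Ccl7, Ccl2, Il1r1, Bcl3 and Relb), where 1.18% of all genes were, with a median log2 difference of 0.5. Ccl7 and Ccl2, which draw monocytes, were 4.75-fold and 3.08-fold higher. Il1r1 was below the floor in mdx at 3 months (12.0) and in MMP-2-deficient at 1 month (9.37), so its folds against these arrays are lower bounds. Bcl3 (22.4), Ccl7 (23.4) and Relb (26.1) lay near the floor in mdx at 3 months. At 1 month 4 of the 17 genes were higher and 12 lower, none past 2-fold, with a median of -0.17. Tnf, Il1a, Il17a, Ptgs2 and Csf3 were below the floor on every array. Il6 was above the floor only in MMP-2-deficient at 3 months (20.3), so Il6 could only count as higher in differences with that array. With age in mdx, Birc3, an inhibitor of apoptosis, was past 2-fold higher and Ccl7 and Bcl3 past 2-fold lower (median -0.06). Of all genes, 2.52% were past 2-fold in either direction there. In MMP-2-deficient muscle 4 were past 2-fold higher (Ccl2, Il1r1, Birc3 and Ccl7), where 1.47% of all genes were, and 0 lower (median 0.4).

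Genes of the interferon gamma pathway lay evenly to both sides at 3 months. There 9 of 18 were higher and 9 lower in MMP-2-deficient, with a median of 0.0, and at 1 month 10 were higher and 7 lower, with a median of 0.02. The peptide transporter gene Tap1 was 1.75-fold higher at 3 months and the guanylate-binding protein gene Gbp6 1.53-fold lower. Medians with age were -0.01 in mdx and -0.11 in MMP-2-deficient. No gene of the list was past 2-fold in any difference, and Ifng was below the floor on every array.

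Genes that carry the Cxcr4 signal numbered 16 above the floor, with medians between genotypes of 0.0 at 1 month and 0.28 at 3 months. At 3 months 11 were higher and 5 lower, none past 2-fold: the arrestin Arrb2, which ends receptor signalling, was 1.72-fold and Dock2, a guanine exchange factor of blood cells, 1.68-fold higher. Their medians with age were -0.15 in mdx and 0.21 in MMP-2-deficient. In MMP-2-deficient Pik3r5, a regulatory subunit of a lipid kinase of blood cells, was past 2-fold (52.4 against 23.4). It was 1 of 16 genes, where 1.47% of all genes were as far above. Il1r1, Il6, Bcl3, Relb and Pik3r5 were named after their values were seen, as were the neutrophil genes Csf3r, Ngp, Fpr2, Lcn2, Mpo and Camp.

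Most markers of neutrophils and macrophages were, like Cxcl1 and Cxcl5, higher in MMP-2-deficient at 3 months. The summed signal of 11 neutrophil markers was 244 and 154 in mdx and 259 and 805 in MMP-2-deficient, at 1 and 3 months. S100a8 (343) and S100a9 (216) made up most of the 805, and the sums include values below the floor. At 3 months 7 of 9 measured markers were higher in MMP-2-deficient, 5 past 2-fold (S100a8, S100a9, Csf3r, Ngp and Fpr2), where 1.18% of all genes were, with a median of 1.25. Csf3r (9.52) and Fpr2 (11.5) were below the floor in mdx at 3 months, so their folds are lower bounds. Mpo, the myeloperoxidase of neutrophil granules, lay the other way, with a log2 difference of -0.45, and Camp was below the floor in both arrays. Cxcr2 and Ltf of this list were below the floor throughout. Lcn2 was above the floor only in MMP-2-deficient at 3 months (32.4), so Lcn2 could only count as higher in differences with that array. The list's medians were -0.08 between genotypes at 1 month, -0.27 with age in mdx and 0.89 with age in MMP-2-deficient.

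Macrophage and monocyte markers summed to 14417 and 11046 in mdx and 13075 and 16825 in MMP-2-deficient. At 3 months 18 of 18 were higher in MMP-2-deficient, 3 past 2-fold (Msr1, Ccr2 and Fcer1g, against 1.18% of all genes), with a median of 0.69, and at 1 month 6 were higher and 12 lower, with a median of -0.09. Their medians with age were -0.27 in mdx and 0.5 in MMP-2-deficient. The part of these cells in the differences of Cxcl1, Cxcl5 and Cxcl10 was not tested.

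Of 13 T and natural killer cell markers, 10 were below the floor on every array, among them Cd3d, Cd3e, Cd3g, Nkg7 and Ncr1. These are the cells that Cxcl9 and Cxcl10 draw. The 3 measured markers were Thy1, with signals from 179 to 320, and Cd8a (8.98 to 31.1) and Gzma (17.4 to 19.2), both near the floor. Cd8a and Gzma were named after their values were seen. Between genotypes the medians were -0.17 at 1 month, the value of Thy1, and 0.29 at 3 months, the value of Cd8a. Between genotypes at 1 and 3 months, medians were 0.16 and -0.2 for endothelial, -0.04 and 0.11 for fibroblast and -0.09 and 0.22 for satellite cell markers. They were -0.31 and -0.12 for skin and -0.01 and -0.02 for muscle fibre markers. Quantile scaling gives all arrays the same set of values, and fibre genes shared some, such as 13460 for Myh1 in mdx at 1 month and Acta1 in mdx at 3 months. The fibre medians therefore cannot show that fibre content was unchanged.

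**Figure D5:**
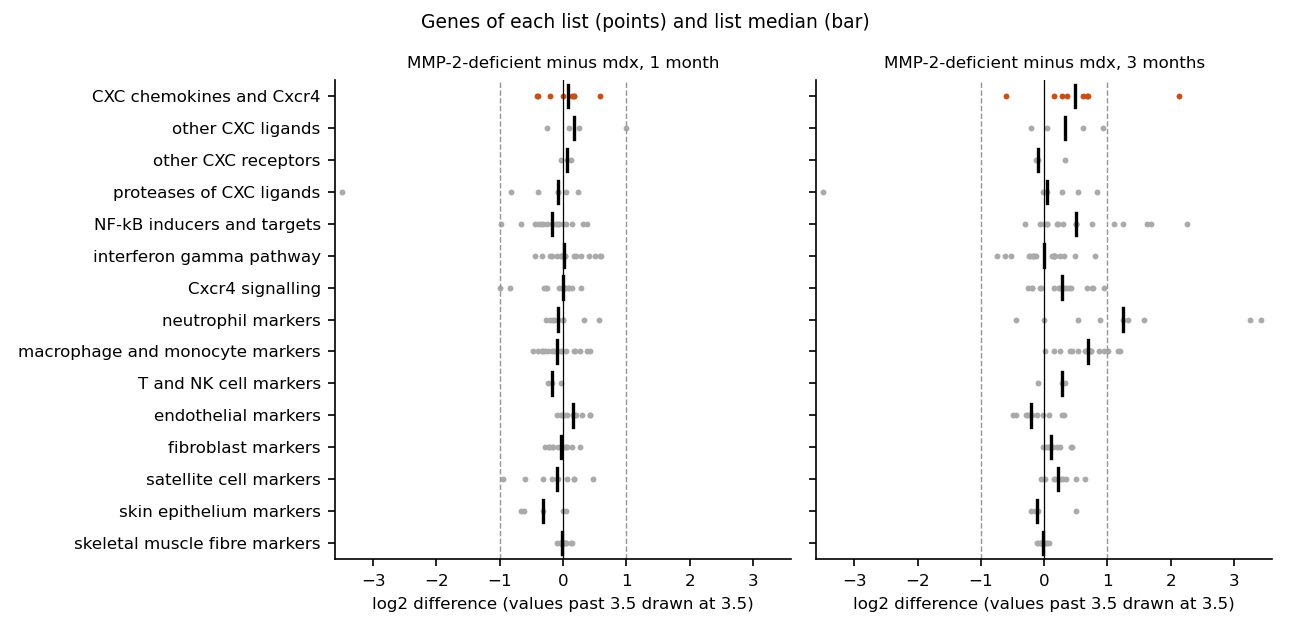
Log2 difference of MMP-2-deficient minus mdx (x axis) at 1 month (left) and 3 months (right) for each gene above the floor of the CXC chemokines and Cxcr4 (orange points) and of the other lists (grey points); black bars are list medians and dashed lines mark 2-fold. Values past 3.5 are drawn at the edge, which applies to Mmp2. At 3 months the bars of the members, of NF-kB genes and of neutrophil and macrophage markers stand at 0.48, 0.5, 1.25 and 0.69, and that of the interferon gamma pathway at 0.0.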

How the data were processed

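Per the submitters' processing notes, the authors used MAS5 in Affymetrix Expression Console, and the deposited intensity values are linear, with 1 value per probe set. Versions and scaling settings are not given in the sources used here, and the columns were not on a common scale: their 2% trimmed means were 91.3 and 90.4 in mdx and 97.5 and 122 in MMP-2-deficient mice, at 1 and 3 months. Groups came from the sample labels.

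Arrays were quantile normalized (limma 3.58.1, R 4.3.3), a floor was set at the 50th percentile of non-control signals (17.4), and log2 was taken. For a gene with several single-gene probe sets, the one with the highest mean stood for it, and 12802 genes above the floor on at least 1 array were kept. By gene identifier, 34741 probe sets were found in the RefSeq gene table, and 0 symbols needed an update. Differences with an absolute log2 size under 0.005 counted as 0. The additive fit used lmFit and eBayes with Benjamini-Hochberg adjustment over all genes. It was tested on simulated data in which a genotype difference was the same at both ages, so differences that vary with age were not covered. Promoter motifs were searched in Python 3.11.15 in the 250 bases before the start.

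The members and lists were chosen with earlier results of these data known. Named besides the members were Mmp2, genes of a list with the largest differences (up to 4 per list and difference, highest signal at or above 85.4, the 75th percentile), and the 3 genes nearest in pattern to a member above the floor on all arrays with a 2-fold range. Genes at the floor were named after their values were seen. Nfkb1, Grk2, Cxcr1, Retnlg, Ly6g, Fpr1, Lck, Ly6a and Dsg3 had no single-gene probe set in the annotation used here, and 1 further gene is not reported here. Alternatives were 3 other scalings (median, cyclic loess, none), a floor at the 40th or at the 60th percentile, a pseudocount of 4.36 in place of the floor, averaging a gene's probe sets, leaving out _x_at and _s_at probe sets, a 1.5-fold threshold and, for the fit, a variance prior that follows signal.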

Additional observations from a re-analysis of the deposited data

Results flagged for a closer look

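Cxcl1 lay opposite ways between genotypes at both ages, lower in MMP-2-deficient at 1 month and higher at 3 months, and its log2 genotype difference was 1.07 greater at 3 months. By its other probe sets this was 2.21 and 0.86. Of all genes, 2.91% had a genotype difference at least 2-fold greater at 3 months. With 1 array per group this difference between ages was not tested.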

How the results depend on the processing

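Of 36 alternative values for the counts of members past 2-fold, 32 lay within 1.5 times the main count. At 3 months between genotypes the count of 1 became 4 with no scaling, where 855 of 12872 genes were past 2-fold higher and 13 lower. Without _x_at and _s_at probe sets it became 2 (Cxcl1 joined Cxcl5), where 145 of 12446 genes were past 2-fold higher and 53 lower. At a 1.5-fold threshold it became 5 (4 higher, 1 lower), and between ages in mdx the count of 0 became 1. The share of all genes past 1.5-fold was not computed, so the counts at that threshold have no background beside them. The members' median at 3 months between genotypes was 0.93 with no scaling and 0.36 with a floor at the 60th percentile, against 0.48. With age it was -0.2 with no floor in mdx, against -0.08, and in MMP-2-deficient 0.31 with median scaling, 0.37 with no scaling and 0.26 with the mean of all probe sets, against 0.15. The cause of these shifts was not tested, except that median and no scaling moved the median of all genes in that difference by 0.19 and 0.26. The other 26 medians stayed within 0.1. Of 256 values of single members, 248 stayed on their side of 2-fold and 8 passed it: 6 of Cxcl1 (log2 differences from 1.06 to 1.44), 1 of Cxcl10 (1.16) and 1 of Cxcl14 (1.05). The additive fit called 0 members under all 10 settings. Its calls over all genes varied with the setting. For genotype they reached at most 21 of 12872 genes, with no scaling. For age they were 79 of 12872 with no scaling and at most 130 of 12802, with the variance prior that follows signal. The lowest adjusted p among members ranged from 0.247 to 0.9995 for genotype and from 0.0761 to 0.393 for age. No paired analysis was made, because each group had 1 array and the labels match no animals between groups. The additive fit compares genotypes with age as a term. Cxcl5 and Cxcl10, at or near the floor, are limited by signal over background.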
